A study of Homo sapiens with 4 samples.

Results

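The ETS transcription factor genes ETS1, ETS2, ETV3, ERF, ETV6, ELF1, ELF2, ELF3, EHF and ELK3 were examined for FOXK2 binding in OVCAR5 cells. These 10 genes were chosen by name, with earlier results of these data known. A FOXK2 peak was counted for a gene when the deposited annotation gave that gene as having the nearest transcription start site (TSS). By this rule, 19 of the 12471 peaks in replicate 1 and 38 of the 27281 peaks in replicate 2 belonged to the 10 genes. OVCAR5 is an established high-grade serous ovarian cancer cell line, here at passage 4-6, and FOXK2 chromatin was precipitated with an anti-FOXK2 antibody in 2 biological replicates of 1 condition. Both replicates come from the same line, and no arm with FOXK2 removed was among the peak lists, so the lists describe where peaks were called and not what FOXK2 did there. Expression of the 10 genes was not measured in these files, and the input libraries were not analysed here.

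FOXK2 is a forkhead transcription factor, and forkhead proteins recognise short sites of which TGTTTAC is a well-known form. ETS factors share a winged helix-turn-helix DNA-binding domain that reads a GGAA core, and they carry signals from growth factor receptors and the RAS-ERK pathway to their target genes. Some members of the family activate and others repress, and several are restricted to epithelial or blood cells.

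The stretches below carry the forkhead heptamer TGTTTAC, in capitals, in peaks that were called in both replicates. They are shown because they are the exact copies of the site under the peaks that ranked highest for ELF2, ETS2 and ELK3, and under the other shared ELF2 peaks that hold a copy. All were read 5′ to 3′ from hg38, on the strand that carries TGTTTAC.
ELF2, intron 3, chr4:139082943-139083009, plus strand: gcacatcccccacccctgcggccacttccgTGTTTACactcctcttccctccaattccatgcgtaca
ELF2, intron 1 near the outermost start, chr4:139176583-139176649, minus strand: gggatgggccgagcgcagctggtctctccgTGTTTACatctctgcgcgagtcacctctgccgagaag
ELF2, intron 1 within a LINE element, chr4:139144585-139144651, minus strand: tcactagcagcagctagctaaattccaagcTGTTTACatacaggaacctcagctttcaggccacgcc
ETS2, intron 9, chr21:38820121-38820187, plus strand: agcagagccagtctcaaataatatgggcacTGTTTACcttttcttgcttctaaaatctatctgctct
ELK3, at the TSS, chr12:96194431-96194459, plus strand: gcggaaaagccTGTTTACacagactgcac

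FOXK2 peaks were called at 8 of the 10 genes in replicate 1 and at 9 of the 10 in replicate 2. Among all 20056 protein-coding genes of the gene reference, 30.4% had a peak in replicate 1 and 50% in replicate 2. The genes with a peak in both lists were ETS1, ETS2, ETV6, ELF1, ELF2, ELF3, EHF and ELK3 (8 of 10, beside 27.8% of protein-coding genes), and each of these had at least 1 pair of peaks that overlapped between the replicates. ERF had a peak in replicate 2 alone, and ETV3 had none in either list. The median length of the 10 genes was 58823 bp, against 24092.5 bp for all protein-coding genes and 44096 bp for those with a peak in both replicates. The part of gene length in these counts was not tested, nor was that of choosing the genes with earlier results known.

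Most peaks of the 10 genes lay inside the genes or beyond them and not at promoters. The deposited annotation placed 12 of the 19 peaks of replicate 1 in introns (39.0% of the whole list), 4 in intergenic sequence (34.1% of the list), 2 at promoters (21.7% of the list) and 1 in an exon. In replicate 2, 20 of the 38 peaks were intronic (40.6% of the list), 12 intergenic (36.5% of the list), 5 at promoters (18.0% of the list) and 1 exonic. The promoter share was 10.5% in replicate 1 and 13.2% in replicate 2, with exact Clopper-Pearson 95% intervals of 1.3% to 33.1% and 4.4% to 28.1%, which cover counting error only and include the shares of the whole lists. The share depended on which starts were used. Counted from 1000 bp upstream to 100 bp downstream of any GENCODE transcript start of the assigned gene, 4 of 19 peaks (21.1%) and 7 of 38 (18.4%) lay at a start, beside 31.0% and 26.2% of the peaks assigned to protein-coding genes. The peaks that this adds were the exon 1 peak of ELF2 in both replicates, the intron 2 peak of ETS2 in replicate 1 and an intron 1 peak of EHF in replicate 2. By the deposited annotation, ELF1 and ELK3 had a promoter peak in both replicates (2 of 10 genes, beside 9.00% of protein-coding genes), while the promoter peaks of ETS1, ETV6 and ERF were called in replicate 2 alone. Downstream of the assigned TSS lay 17 of the 19 peaks in replicate 1 and 31 of the 38 in replicate 2, beside 54.0% and 54.1% of the lists, and this difference was not tested.

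**Figure D1:**
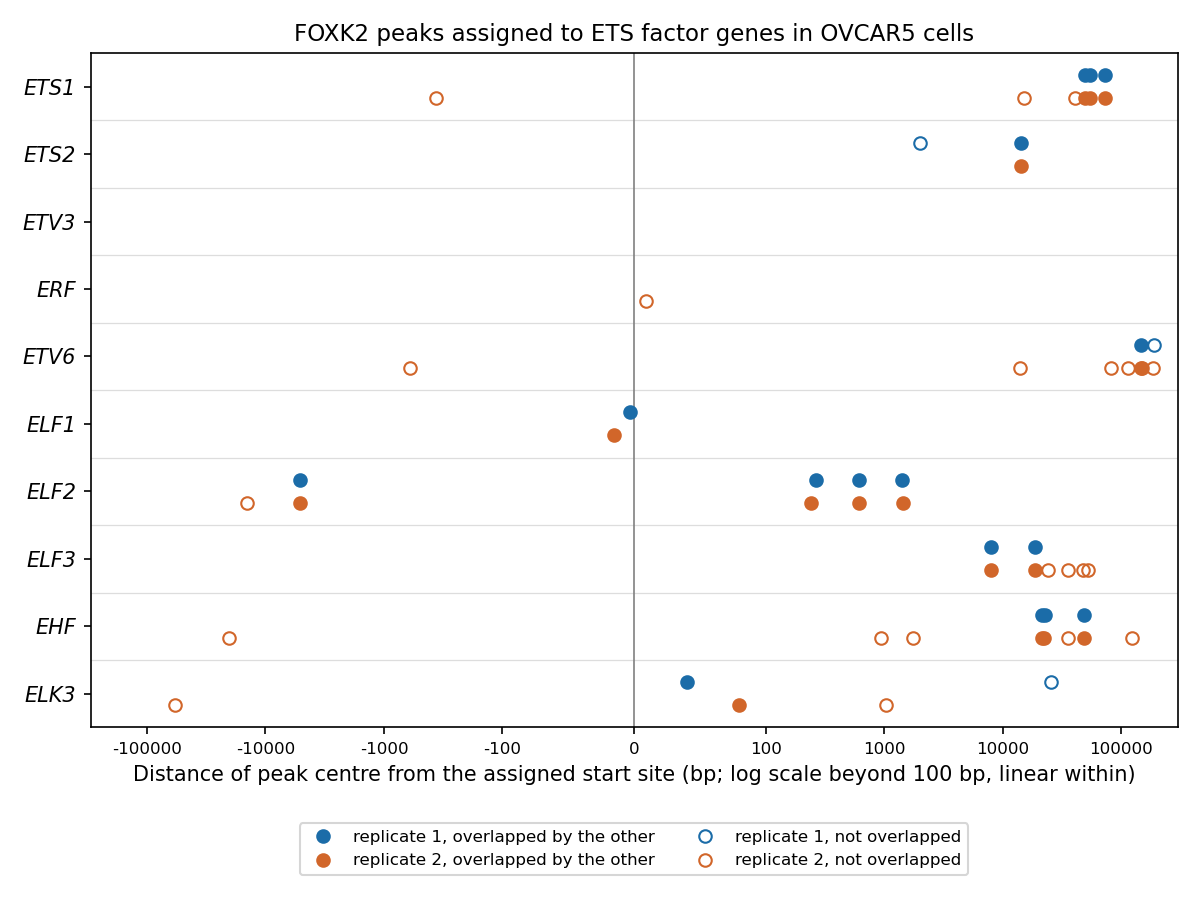
Distance of each FOXK2 peak centre from its assigned TSS in bp (horizontal axis, linear within 100 bp and logarithmic beyond) for the 10 ETS factor genes. Blue points are the 19 peaks of replicate 1 and orange points the 38 of replicate 2, filled where a peak overlaps one of the other replicate. ELF1 and ELK3 have filled points at the start site in both colours, and ETV3 has no point.

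Of the peaks at these genes, 16 of 19 in replicate 1 had a partner in replicate 2, a peak sharing 1 bp or more with them (84.2%, exact 95% interval 60.4% to 96.6%), beside 74.9% of the whole list. In replicate 2, 16 of 38 had a partner in replicate 1 (42.1%, 26.3% to 59.2%), beside 34.2% of the list. Both intervals include the share of the list. The 16 pairs had centres a median of 37 bp apart, against 29 bp over all pairs of the lists, and 14 of them overlapped by at least 50% of the shorter peak, beside 95.8% of all pairs. The other 2 pairs, both at EHF, touched by 41 bp and 61 bp.

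HOMER's peak score counts tags scaled to each library, so each score was read as a percentile within its own list, where the highest values are the strongest peaks. The list medians were 5.85 in replicate 1 and 7.29 in replicate 2. Paired peaks of the 10 genes had a median percentile of 77.5 in replicate 1, from 24.4 to 98.5, and of 87.0 in replicate 2, from 60.1 to 99.4. The 3 unpaired peaks of replicate 1, at ETS2, ETV6 and ELK3, lay at percentiles of 14.7, 9.70 and 0.14, below all 16 paired ones. The 22 unpaired peaks of replicate 2 ranged from 3.65 to 76.3 with a median of 43.5, so there the paired and unpaired peaks overlapped in strength. In 14 of the 16 pairs the percentile was higher in replicate 2, whose list was the longer. The same count was not taken over all pairs of the lists, so nothing particular to these genes is read from it.

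**Figure D2:**
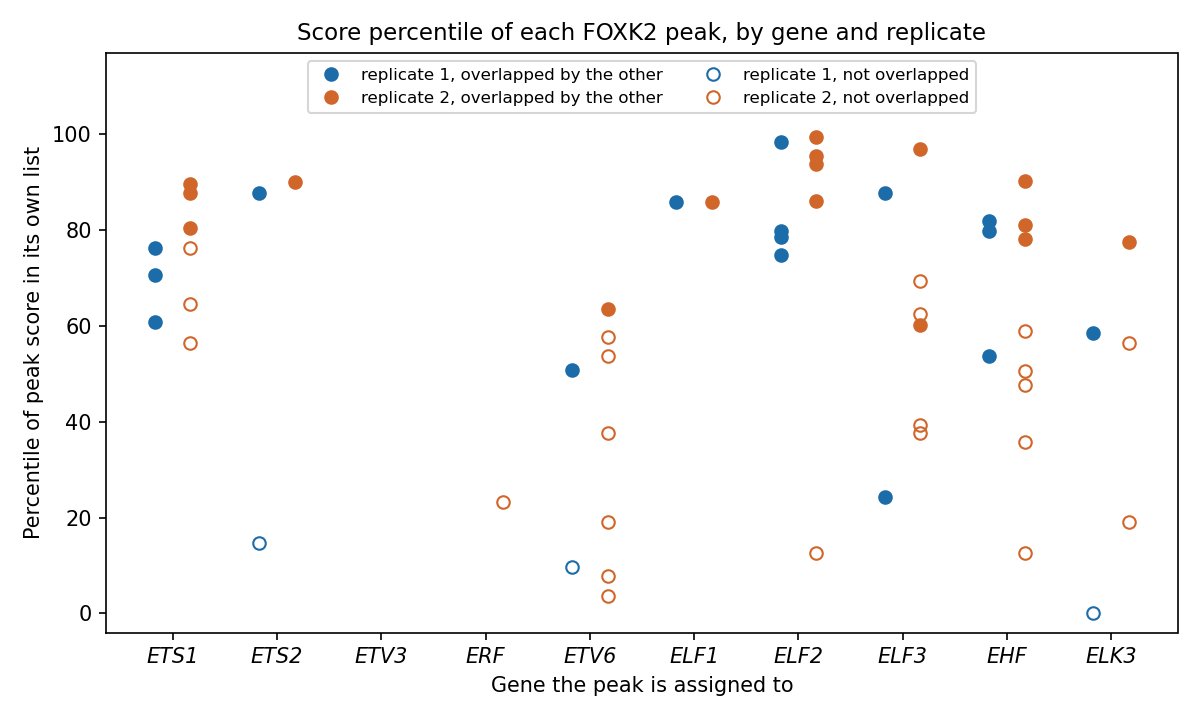
Score percentile within its own list (vertical axis) of every FOXK2 peak of the 10 genes (horizontal axis), blue for replicate 1 and orange for replicate 2, filled where it overlaps a peak of the other replicate. ELF2 reaches 98.5 and 99.4, and the open blue points lie at 14.7 or lower.

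ELF2, also called NERF, encodes an ETS factor of the ELF subfamily. It had the strongest peak among the 10 genes in both replicates. That peak lay in intron 3 on a CpG island, at chr4:139082879-139083089 in replicate 1, 1430 bp from the TSS, with a score of 23.2 and rank 187 of 12471. Its partner in replicate 2 had a score of 48.3 and rank 159 of 27281, at 1451 bp. If scores are scaled to 10000000 tags, HOMER's default, these correspond to 123 tags (exact Poisson 95% interval 102.2 to 146.8) and 325 tags (290.6 to 362.3). The Poisson intervals, here and for ERF below, cover counting error only. The centres were 21 bp apart, and the heptamer of the first ELF2 stretch printed above lay at -8 bp from the replicate 1 centre and at 13 bp from the replicate 2 centre.

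ELF2 was also the gene with the most paired peaks, 4 in all, assigned to 3 annotated starts. A peak near the outermost start, in intron 1 and on a CpG island, scored 9.05 in replicate 1 (rank 2363) and 22.2 in replicate 2 (rank 1183), with centres 4 bp apart. Another in exon 1 of a shorter transcript scored 8.87 (rank 2511) and 19.5 (rank 1670), and its windows held no TGTTTAC. The ELF2 peak at -5161 bp lay in an L1PBa LINE element in intron 1 and scored 8.30 (rank 2960) and 14.3 (rank 3679). Its centres differed by 1 bp, the smallest gap of the 16 pairs. The focus ratio, the fraction of tags on the expected side of the centre, was 0.921 and 0.922 there, the highest of the members' peaks in each list, whose medians were 0.758 and 0.755. The fifth ELF2 peak, in replicate 2 alone, scored 4.46 and lay in a MER4CL34 LTR element, with TGTTTAC in its window.

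ELF1 encodes an activator best known from blood cells. It had a single peak in each replicate, which the deposited annotation placed at a promoter. In replicate 1 the peak, at chr13:41019270-41019480, lay at -3 bp and scored 10.4, and in replicate 2 it lay at -15 bp and scored 14.1. These are percentiles of 86.0 and 85.9, the closest match in percentile among the 16 pairs. The lists differ in length, and the ranks of this ELF1 peak were 1682 and 3768. Neither window held TGTTTAC. Each held 1 copy of the AP-1 site TGACTCA, whose other strand reads TGAGTCA, and it is shown because it was the searched motif found at this promoter, on the plus strand of hg38 with the site in capitals.
ELF1, chr13:41019334-41019362: gcttcagcttaTGAGTCAtacatgaaacc

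ELF3 and EHF encode ETS factors of the epithelial subfamily, which direct differentiation of epithelial cells. Most of their peaks lay far from the assigned TSS, and replicate 2 held more of them than replicate 1. ELF3 had 2 peaks in replicate 1 and 6 in replicate 2, and none of them lay within the gene, which is 6597 bp long. The strongest, at chr1:202018511-202018721 in replicate 1 and 8054 bp from the TSS, scored 10.9 (rank 1439), and in replicate 2 it scored 25.7 (rank 812) at 7987 bp. These percentiles, 87.8 and 97.0, made it the pair with the second-highest mean percentile, after ELF2. No copy of TGTTTAC lay within 100 bp of either centre.

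The 167 bases common to both ELF3 peaks are shown because this was the highest-ranked pair with no exact copy of the heptamer. Capitals mark the one place that is 1 base off TGTTTAC, by C7T, with positions counted from 1 at the heptamer's 5′ end.
ELF3, chr1:202018511-202018677, plus strand: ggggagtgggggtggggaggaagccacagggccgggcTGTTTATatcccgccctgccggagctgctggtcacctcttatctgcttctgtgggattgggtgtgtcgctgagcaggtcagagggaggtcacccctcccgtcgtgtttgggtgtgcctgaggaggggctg
Copies that are 1 base off are common. They were in 12 of the 19 windows of the 10 genes in replicate 1 and in 22 of 38 in replicate 2, beside 57.1% and 58.2% of all windows, so nothing is read from this one.

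The other paired ELF3 peak, 18670 bp from the TSS in replicate 1, was the weakest of the 16 pairs. It scored 4.72 in replicate 1 (rank 8857) and 8.48 in replicate 2 (rank 10552), and both windows held an AP-1 site. It had the lowest GC content of the members' windows, 25.9% and 26.9%. The 4 ELF3 peaks of replicate 2 alone lay 24313, 35800, 47778 and 52774 bp from the TSS and scored 6.39, 8.77, 6.25 and 9.82. TGTTTAC was in the windows of those at 35800 and 52774 bp. All ELF3 peaks therefore ran in one direction, downstream of the gene.

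EHF had 3 peaks in replicate 1 and 8 in replicate 2, the most of the 10 genes, and those of replicate 2 spread over 156125 bp. The best pair by mean percentile lay in intron 6, at chr11:34654050-34654260 in replicate 1 and 21691 bp from the TSS, with scores of 9.05 (rank 2363) and 16.7 (rank 2582). A pair close by in the same intron scored 6.23 and 11.6, with centres 173 bp apart. The pair beyond the gene, 48653 bp from the TSS in replicate 1, scored 9.43 (rank 2128) and 12.3 (rank 5048). The centres of this last EHF pair were 193 bp apart, the widest gap of the 16.

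Each EHF peak of that pair had its own TGTTTAC near the centre, and the copies were 202 bp apart. They are printed to show that the replicates pointed to different copies, both read on the minus strand.
EHF, replicate 1 copy, chr11:34681077-34681143: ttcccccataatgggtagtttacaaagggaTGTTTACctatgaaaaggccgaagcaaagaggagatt
EHF, replicate 2 copy, chr11:34681279-34681345: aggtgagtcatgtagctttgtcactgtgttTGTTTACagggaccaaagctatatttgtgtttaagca
The copy of replicate 1 lay at -7 bp from its centre and that of replicate 2 at 2 bp from its own. The pair counted as shared on an overlap of 41 bp, and whether it was 1 site or 2 was not tested.

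Of the 5 EHF peaks called in replicate 2 alone, the one in intron 1 of a longer transcript, at chr11:34621862-34622118 and 949 bp from that start, held 3 copies of TGTTTAC, the most in any window of the 10 genes. Its score was 7.44, at percentile 50.7 of the list. The copies are embedded in a repeated stretch, shown on the plus strand with the copies in capitals.
EHF, chr11:34621895-34622024: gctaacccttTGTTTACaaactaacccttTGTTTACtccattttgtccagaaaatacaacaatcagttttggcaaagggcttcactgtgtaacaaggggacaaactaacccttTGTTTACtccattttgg
The remaining EHF peaks of replicate 2 alone were at -20506, 1767, 35802 and 124196 bp and scored 7.14, 6.10, 8.33 and 4.46.

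ETS1 and ETS2, the founding members of the family, encode transcriptional activators that respond to RAS-ERK signalling. ETS1 had 3 peaks in replicate 1, all of them paired, and 6 in replicate 2. The strongest ETS1 pair lay in intron 5 at chr11:128467725-128467935, 54480 bp from the TSS, with scores of 8.49 (rank 2809) and 16.2 (rank 2755) and centres 9 bp apart. Another pair in that intron, 49878 bp from the TSS, scored 6.79 (rank 4624) and 15 (rank 3243). Another, beyond the end of the gene at 73671 bp, scored 7.73 (rank 3477) and 12.2 (rank 5177). All 3 ETS1 pairs were thus far from the assigned TSS. Measured from GENCODE starts of ETS1 instead, their replicate 1 peaks lay closer, at -3880, -8482 and 15311 bp in the same order. The pair at 49878 bp from the assigned TSS held both TGTTTAC and the AP-1 site within 100 bp of each centre, though TGTTTAC lay 86 and 96 bp out. The ETS1 promoter peak, at -366 bp, scored 8.03 in replicate 2 (percentile 56.5) and had no counterpart in replicate 1.

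ETS2 had 1 pair, in intron 9, at chr21:38820009-38820219 and 14283 bp from the TSS in replicate 1. It scored 10.9 (rank 1439) and 16.5 (rank 2632), at percentiles of 87.8 and 90.2. By percentile, the replicates therefore placed this ETS2 peak at nearly the same height, though in lists of different length. TGTTTAC and the AP-1 site were both in its windows. In replicate 2 the AP-1 site was centred at 0 bp and TGTTTAC at 83 bp, while in replicate 1 they lay at -43 and 40 bp. ETS2 had 1 more peak, in intron 2, which scored 4.34 in replicate 1 and was not called in replicate 2.

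ERF, ETV3 and ETV6 encode repressors of the family. ERF is moved out of the nucleus when ERK phosphorylates it, and ETV6, or TEL, forms polymers through its pointed domain and is a frequent partner in leukaemia fusions. ERF had 1 peak, at its promoter 9 bp from the TSS, at chr19:42253762-42254018 in replicate 2. Its score of 5.21 ranked 20303 of 27281 (percentile 23.4), which is 35 tags (24.4 to 48.7) under the default scaling. No peak was called there in replicate 1. ETV3 had no peak in either list, and no peak assigned to another gene overlapped its annotated body.

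ETV6, the longest of the 10 genes at 245704 bp, had 2 peaks in replicate 1 and 7 in replicate 2, which spread over 185209 bp. Only 1 pair overlapped, in intron 2 at chr12:11796198-11796408 and 146449 bp from the TSS. It scored 6.04 (rank 5777) and 8.92 (rank 9640), at percentiles of 50.7 and 63.6, so it lay near the middle of each list, below the best pairs of the other 7 genes that had one. Neither window held TGTTTAC. The ETV6 promoter peak, at -599 bp, scored 7.73 in replicate 2 alone. The other 5 unpaired ETV6 peaks of replicate 2 scored 3.87 to 8.18, and TGTTTAC was in the windows of those at 13943 and 81763 bp. The unpaired ETV6 peak of replicate 1, in intron 3, scored 4.15.

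ELK3, also called NET, is a ternary complex factor that binds DNA together with serum response factor, and it represses until it is phosphorylated by ERK. Its promoter peak was called in both replicates, at chr12:96194317-96194527 and 40 bp from the TSS in replicate 1 and at 80 bp in replicate 2. The scores were 6.6 (rank 4892, percentile 58.6) and 11.5 (rank 5943, percentile 77.6). The TGTTTAC copy printed above for ELK3 lay 23 bp from the replicate 1 centre and at -17 bp from the replicate 2 centre, which puts it between them. ELK3 was thereby the gene of the 10 with a paired promoter peak that holds the heptamer, since the ELF1 promoter lacks it. A further ELK3 peak in intron 1, 1038 bp from the TSS, scored 8.03 in replicate 2 alone and held TGTTTAC. The remaining ELK3 peaks scored 3.40 in replicate 1, near the end of that list, and 4.91 in replicate 2.

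Over all 10 genes, TGTTTAC was in the windows, 100 bp to each side of the centre, of 7 of 19 peaks in replicate 1 (36.8%, exact 95% interval 16.3% to 61.6%), beside 30.5% of the whole list. In replicate 2 it was in 15 of 38 (39.5%, 24.0% to 56.6%), beside 28.2%. Both intervals include the share of the list. The 7 peaks of replicate 1 with a copy were all paired, at ELF2, ETS1, ETS2, EHF and ELK3, and none of the 3 unpaired ones held it. In replicate 2, 7 of 16 paired and 8 of 22 unpaired peaks held it. Both windows held the same copy in 6 of the 7 pairs, EHF being the exception. The copies were within 30 bp of the centre in 5 of 7 cases in replicate 1 and in 10 of 17 in replicate 2. No matching share was taken over the whole lists, so these counts are not set against other genes.

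The AP-1 site TGACTCA was in 6 of 19 windows in replicate 1 (31.6%, 12.6% to 56.6%), beside 16.4% of the list. In replicate 2 it was in 9 of 38 (23.7%, 11.4% to 40.2%), beside 16.6%. It lay in both windows of 4 pairs, at ETS1, ETS2, ELF1 and ELF3. The ETS consensus CCGGAAG was in none of the 19 windows, which allows a share of up to 15.8% by 3 counts of the total, or 17.6% by the exact 95% interval, beside 5.69% of the list. It was in none of the 38 windows of replicate 2 either, which allows up to 7.89%, or 9.3% by the exact interval, beside 4.90%. With lists of this size, a share at the level of the background would not have been told from 0. All motifs were searched on both strands, and a match describes the letters in the window and not occupancy of a site.

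**Figure D3:**
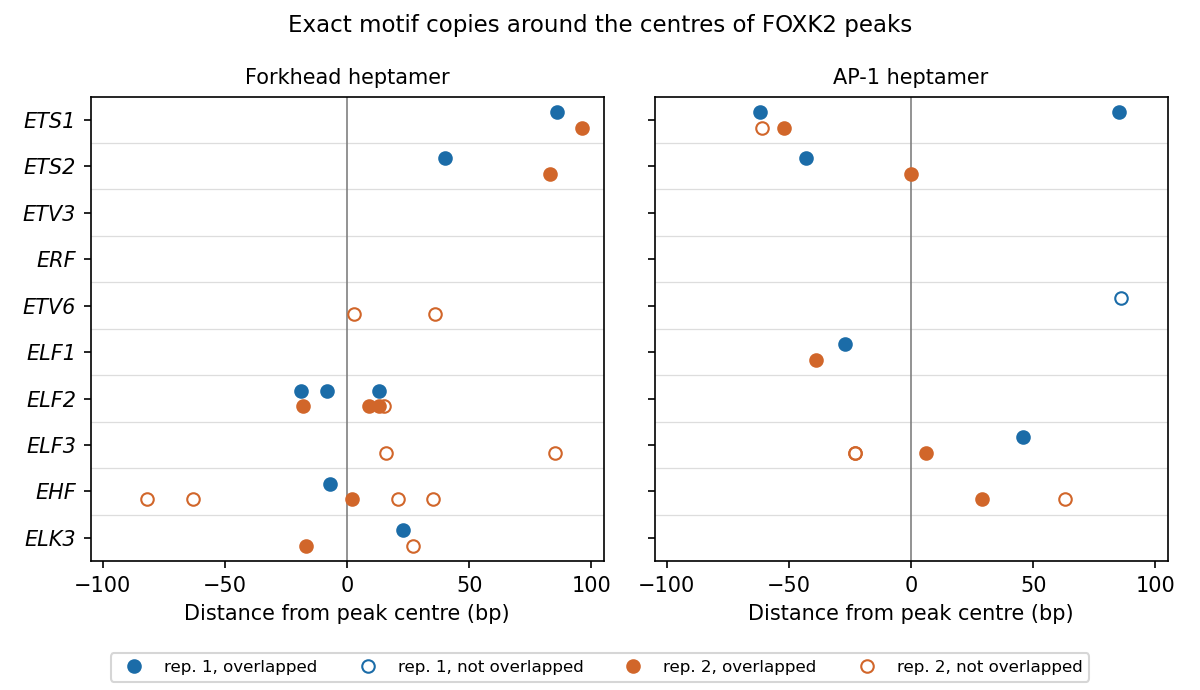
Position of each exact copy of TGTTTAC (left) and of the AP-1 site TGACTCA (right) relative to the peak centre in bp, by gene, blue for replicate 1 and orange for replicate 2, filled where the peak overlaps one of the other replicate. The ELF2 copies of the forkhead site lie within 30 bp of the centre, and those of ETS1 lie 86 and 96 bp away.

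The promoters of the 10 genes in RefSeq, from 250 bp before to 50 bp after the start on GRCh38.p14, gave 17 windows for 9 of the genes. A peak overlapped a window in both replicates at ELF2 and ELK3, 2 of the 9 genes, beside 8.12% of all genes with a window. The ELF1 peak at -3 bp lay at a start that is not among the 3 ELF1 windows, and the ELF2 peak in exon 1 reached into a window of ELF2. TGTTTAC was in 1 of the 17, at EHF, and no FOXK2 peak of either list lay over that window. Among all 35116 promoter windows of the same length, 3.42% held it. CCGGAAG was in none of the 17 and in 10.3% of all.

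The number of peaks per gene was set beside that of other genes. In replicate 2, 5 of the 9 genes with a peak held 5 or more (ETS1, ETV6, ELF2, ELF3 and EHF), beside 6.34% of protein-coding genes with a peak. None of the 8 genes with a peak in replicate 1 held 5 or more, beside 1.84%, and the highest count there was 4, at ELF2. The median over protein-coding genes with a peak was 1 in both lists. The peaks of ELF2 were assigned to several of its starts, most ETV6 peaks lay within its introns, and those of ELF3 in the sequence beyond the gene, where assignment to the nearest TSS decides the gene. The peaks lay inside the annotated gene body in 15 of 19 cases in replicate 1 and in 25 of 38 in replicate 2, beside 58.5% and 57.5% of the peaks assigned to protein-coding genes.

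The other 18 genes of the ETS family were described by the same measures. A peak was called at 7 of them in replicate 1, at 11 in replicate 2 and at 6 in both, against 8, 9 and 8 of the 10 genes. The difference was not tested. Because the 10 genes were chosen with earlier results known, nothing is read from this difference. The strongest ETS family peaks in OVCAR5 cells were those of ETV5 and ETV1, of the PEA3 subfamily, and not of the 10 genes. ETV5, a PEA3 activator induced by growth factor signalling, had a promoter peak at -160 bp that ranked 9 in replicate 1 and, at -142 bp, 5 in replicate 2, with scores of 57.7 and 137.3. The intron peak of ETV1 ranked 77 and 82. ELF2, at ranks 187 and 159, came next among the 28 genes, both by its highest peak in replicate 1 and in replicate 2.

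Within subfamilies, the highest peaks of the 10 genes ranked above those of their relatives that had any. The 10 genes were chosen with earlier results of these data known, so nothing is read from this ordering. In the ELF subfamily, ELF4 had its highest peak at a score of 7.88 in replicate 2 alone. In the epithelial subfamily, ELF5 had a promoter peak with a score of 8.18 in replicate 2 alone, against 25.7 for ELF3 and 16.7 for EHF. ELK4 scored 3.96 and 7.29 and ELK1 4.31 in replicate 2 alone, beside 6.6 and 11.5 for ELK3. The ERF relative ETV3L and the ETV6 relative ETV7 had no peak in either list, nor did the blood-cell factors SPI1, SPIB and SPIC or the neuronal factor FEV. In the subfamilies other than PEA3 that have no member among the 10 genes, the highest peaks were 6.41 and 14.0 for ETV2, 5.66 and 7.14 for SPDEF, 5.28 for GABPA, assigned in replicate 1 alone, and 5.35 for FLI1, assigned in replicate 2 alone. The GABPA gene body held 2 peaks in replicate 1, of which 1 was assigned to GABPA. In replicate 2 it held 1, not assigned to GABPA. The FLI1 gene body held 1 peak in replicate 1 and 2 in replicate 2, none of them assigned to FLI1. Scores of the peaks assigned elsewhere are not given here, so 5.28 and 5.35 are the highest among assigned peaks only.

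**Figure D4:**
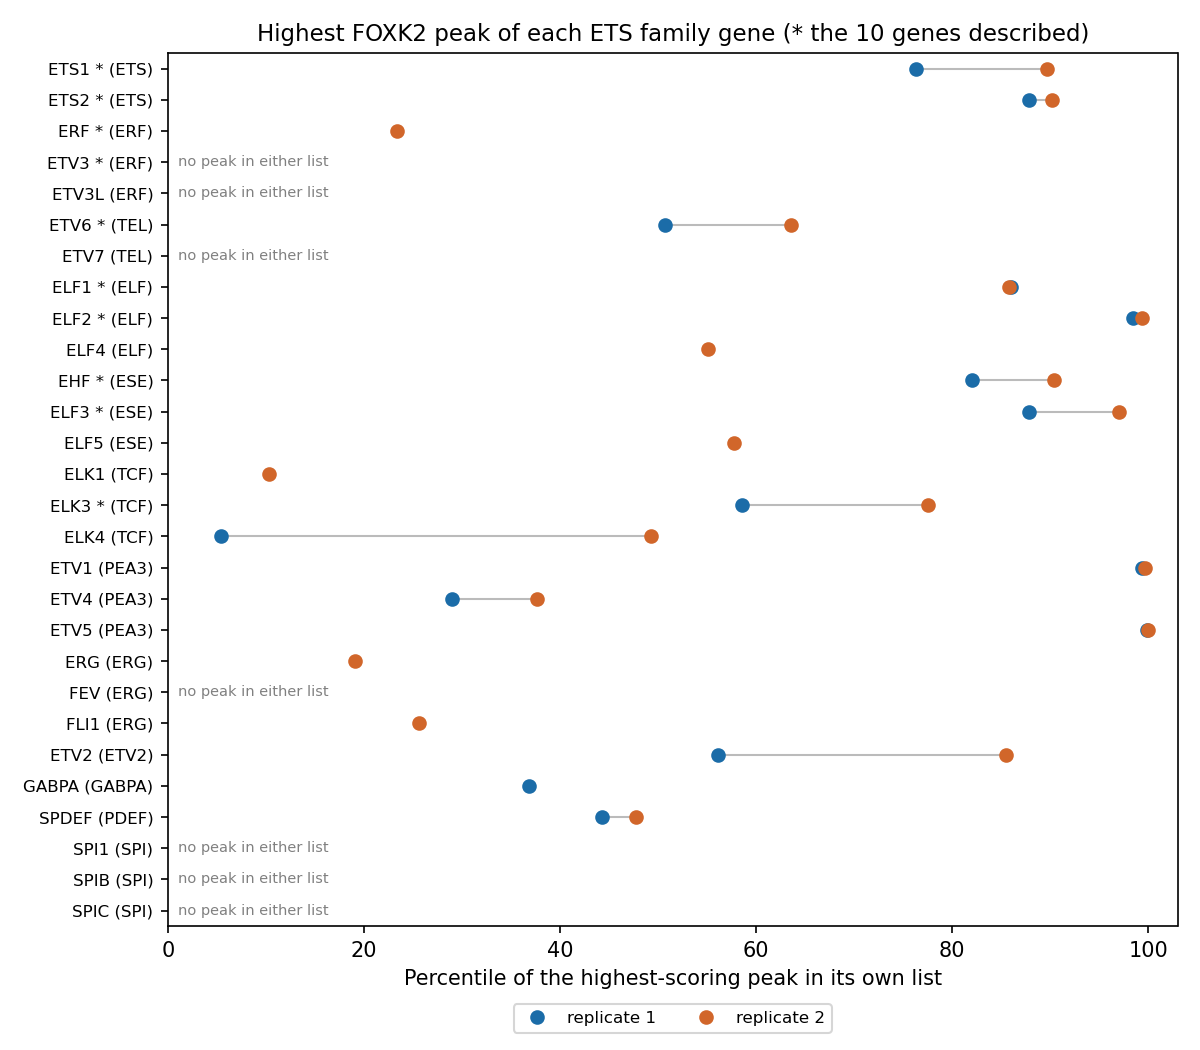
Percentile of the highest-scoring FOXK2 peak within its own list (horizontal axis) for the 28 ETS family genes, grouped by subfamily, blue for replicate 1 and orange for replicate 2, with a grey line joining the replicates. Asterisks mark the 10 genes described, and ETV5, ETV1 and ELF2 lie farthest to the right in both replicates.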

How the data were processed

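The material was 2 annotated FOXK2 peak lists of OVCAR5 cells, one for each replicate. Per the submitters' processing notes, reads were mapped to hg38 with Bowtie2 2.2.6 and HOMER 4.10 was used. The study compared target with input at peaks by DESeq2, but the settings behind these lists, and any use of input in calling them, were not given in the sources used here. The deposited peak score, the deposited focus ratio (a fraction of tags) and the deposited distance to the TSS were used with no further threshold, and coordinates are as deposited. Within the rounding of the deposited values, scores were whole multiples of a step, 0.18864 in replicate 1 and 0.14872 in replicate 2. Under scaling to 10000000 tags, this gives 16 tags for the weakest peak of replicate 1 and 21 for that of replicate 2. The medians were 31 and 49 tags.

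Peaks of the replicates were paired on an overlap of 1 bp or more. For motifs, both strands of hg38 were read 100 bp to each side of the centre. Shares carry exact Clopper-Pearson intervals at 95%. With 2 replicates of 1 condition, no test between groups was made, and all values are descriptions. Gene bodies came from GENCODE release 44, gene lengths and promoters from RefSeq on GRCh38.p14.

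The members and lists were chosen with earlier results of these data known. All 10 members were named, and the other ETS genes were given as counts, with values for those with the highest peak of their subfamily; the values of ELF4, ELF5, ELK1, ELK4, ETV1 and the genes without a peak were added after they were seen. Alternatives were the higher-scoring part of each list, limits of 100000 and 10000 bp on the distance, lists of equal length, a stricter overlap, promoter peaks, windows of 50 and 500 bp, the called peak, TGTTTNC, GENCODE starts, percentiles within a class, and each replicate alone. The count of peaks in gene bodies was added after seeing the data. Overlap, motif and score steps were tested on simulated data, with an error of 0 over 2 sets. Python 3.11.15 was used with numpy 2.4.6, pandas 2.3.3, scipy 1.17.1, pysam 0.24.0, matplotlib 3.10.9 and samtools 1.23.1.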

Additional observations from a re-analysis of the deposited data

How the results depend on the processing

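The main results gave 48 values under the alternatives, of which 41 stayed within the limits set for a count or a share. Limiting peaks to 10000 bp from the TSS left 4 of the 8 genes with a peak in both replicates, 8 of 19 peaks in replicate 1 and 13 of 38 in replicate 2. Requiring a promoter peak in both replicates left 2 genes, ELF1 and ELK3. Taking each replicate alone gave 8 and 9 genes. With replicate 2 limited to the length of replicate 1, 25 of its 38 peaks were left, of which 64.0% overlapped a replicate 1 peak. In the higher-scoring part of each list, 100% of the replicate 1 peaks of the ETS factor genes were overlapped. Under the distance, equal-length and higher-scoring settings, no matching count or share was taken over all genes or the whole lists. Nothing particular to the ETS factor genes is therefore read from the values under those settings. Among single genes, the percentile of ELF1 fell from 85.9 to 78.3 when it was taken among promoter peaks, and that of ELK3 from 68.1 to 58.0. These values carry no direction that could reverse, and why the counts moved was not tested beyond what the settings remove. No paired analysis was possible because both lists used here belong to 1 group. Peak lists without reads leave weaker signal below the calling threshold unseen. The lack of a peak at ETV3 therefore does not show a lack of FOXK2 there.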

Other observations

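Assignment to the nearest TSS left out a few FOXK2 peaks that lay at or in the ETS factor genes. In replicate 2, 2 peaks within the ETV6 gene body were assigned to BCL2L14, each with a score of 4.16 at rank 24480, and 1 within ELF1 was assigned to SUGT1P3, with a score of 5.06 at rank 20908 and 1 copy of TGTTTAC. A further replicate 2 peak over an upstream RefSeq promoter of ELF1 was assigned to WBP4, with a score of 10.3 at rank 7424 and no copy of the heptamer. None of these overlapped a replicate 1 peak.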
